A study of Mus musculus with 6 samples.

Results

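Bile acid synthesis was described through 10 enzymes, Cyp7a1, Cyp8b1, Cyp27a1, Cyp7b1, Cyp39a1, Hsd3b7, Akr1d1, Amacr, Slc27a5 and Baat. They and the further gene lists below were chosen by name, with earlier results of these data known. A probe was assigned to each gene through its RefSeq accession. All 10 were among the 20659 genes named on the array and among the 14805 genes tested, and each was well above background on all 6 arrays. The liver RNA came from male ICR mice, an outbred stock, of 18 to 22 g. Control mice received normal saline, and DECB mice received deproteinized extract of calf blood, each given into the stomach every day over 35 days (0.08 mL for every 20 g of mouse), with 12 mice in a group. Arrays of 3 control samples (control 1, 2 and 3) and 3 DECB samples (DECB 4, 5 and 6) were compared. The sample descriptions give day 1 for control and day 30 for DECB samples, which conflicts with the 35 days of dosing. The mice were also tested for how long they tolerated a closed container, and neither the order of that test and the liver sampling nor the age of the mice is given in the sources used here. The labels do not say that each array is a different mouse. The p-values therefore reflect only how far these samples scatter, which may be technical.

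Hepatocytes turn cholesterol into bile acids, the detergents that carry fat in bile and the main way in which cholesterol leaves the body. The classical route starts with Cyp7a1, which hydroxylates the sterol ring and limits the rate of the whole pathway, and Cyp8b1 adds the hydroxyl group that makes cholic acid. The alternative route starts with oxidation of the side chain by Cyp27a1, after which Cyp7b1 hydroxylates the ring. Cyp39a1, grouped with this route here, hydroxylates the ring of another oxysterol and is not the step after Cyp27a1. Hsd3b7 and Akr1d1 then modify the ring in both routes, Amacr flips the configuration of the side chain before it is shortened in peroxisomes, Slc27a5 activates bile acids with coenzyme A, and Baat joins them to taurine. Bile acids repress their own synthesis through the receptor FXR (Nr1h4) and the corepressor SHP (Nr0b2), which act on factors such as LRH-1 (Nr5a2) and HNF4A (Hnf4a) at Cyp7a1 and Cyp8b1.

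RefSeq promoter sequences (GRCm38.p6) were matched for 4 of the 10 genes, Cyp8b1, Cyp27a1, Akr1d1 and Hsd3b7. The 250 bases before the gene's start are printed for Cyp8b1, the gene of the pathway that passed the test, and for Cyp27a1, whose difference was the nearest to 0 of the 4. Capitals mark matches to any of 4 sets of letters searched on both strands, CAAGGNCA (LRH-1 type), CAAAGTCCA (HNF4 type), TTATGNAA (D-box type) and CACGTG (an E-box).
Cyp8b1, chr9:121916306-121916555, minus strand: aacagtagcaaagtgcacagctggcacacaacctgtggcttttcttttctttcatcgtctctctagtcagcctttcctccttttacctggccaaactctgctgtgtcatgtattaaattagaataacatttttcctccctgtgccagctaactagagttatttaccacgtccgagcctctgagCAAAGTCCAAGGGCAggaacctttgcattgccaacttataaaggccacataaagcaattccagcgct
Cyp27a1, chr1:74713285-74713534, plus strand: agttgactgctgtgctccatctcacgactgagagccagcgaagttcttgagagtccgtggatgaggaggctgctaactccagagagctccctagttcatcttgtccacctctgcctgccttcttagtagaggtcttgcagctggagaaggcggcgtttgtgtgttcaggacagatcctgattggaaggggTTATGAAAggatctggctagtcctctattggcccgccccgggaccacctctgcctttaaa

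The capitals in the Cyp8b1 sequence are an HNF4 type match at position -67 from the gene's start and an LRH-1 type match at position -60, which share 2 letters. Of 32851 promoters of this length, 0.384% held the HNF4 type letters and 5.53% the LRH-1 type letters. Cyp27a1 held a D-box type match at position -60 and Akr1d1 one at position -8, letters that 3.07% of promoters held. The E-box letters, held by 6.02% of promoters, were in none of the 4, and Hsd3b7 held no match to any of the sets. A match describes these letters and not a bound site.

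The arrays were assigned to 3 slides, a slide being taken here as the arrays with the same scan start in the file headers. Control 1 shared slide 1 with DECB 6, DECB 4 shared slide 2 with the remaining controls, and DECB 5 was alone on slide 3. Slide 1 was the dimmer in both groups, with a 75th percentile of processed signal of 78.8 and 84.8 against 422 to 551 elsewhere. Values below are log2 signals relative to that percentile of the same array. Between groups, 31 genes were higher and 38 lower in DECB (adjusted p under 0.05 by limma with Benjamini-Hochberg adjustment), and the median difference over all genes was -0.027. Hepatocyte markers such as Alb and Ttr were well above background on every array. The log2 of the summed signal of 6 such markers ran from 9.84 to 10.16 in control and 9.64 to 10.02 in DECB arrays. Such a sum reflects mostly its brightest members, here Alb and Ttr. In whole liver, fewer cells of a type and less RNA per cell cannot be told apart.

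The 10 genes did not all differ in 1 direction. Cyp8b1 fell in DECB, and Cyp39a1, Amacr and Slc27a5 were lower on every DECB array than on any control array without passing the test. Cyp27a1, Cyp7b1 and Baat differed by 0.37 or less with overlapping arrays, and Cyp7a1 had nearly the same mean in both groups with a wide scatter among the DECB arrays. In all, 1 of the 10 genes was called lower and 0 higher by limma with adjustment over all genes tested, where 0.257% and 0.209% of all genes were called (0.466% in either direction). At an unadjusted p under 0.05 the counts were 4 lower and 0 higher, where 5.79% and 4.22% of all genes were so. All 3 DECB arrays lay below all 3 control arrays for 4 of the 10 genes, against 9.4% of all genes, and above them for 0, against 7.24% (16.6% in either direction). The median difference of the 10 genes was -0.62, with 7 of them below 0, where 52.5% of all genes were below 0. Of hepatocyte markers 6 of 6 were also below 0, of pericentral markers 7 of 8 and of periportal markers 6 of 7. The count was 3 of 5 for Kupffer cell markers and 0 of 3 for cholangiocyte markers.

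**Figure D1:**
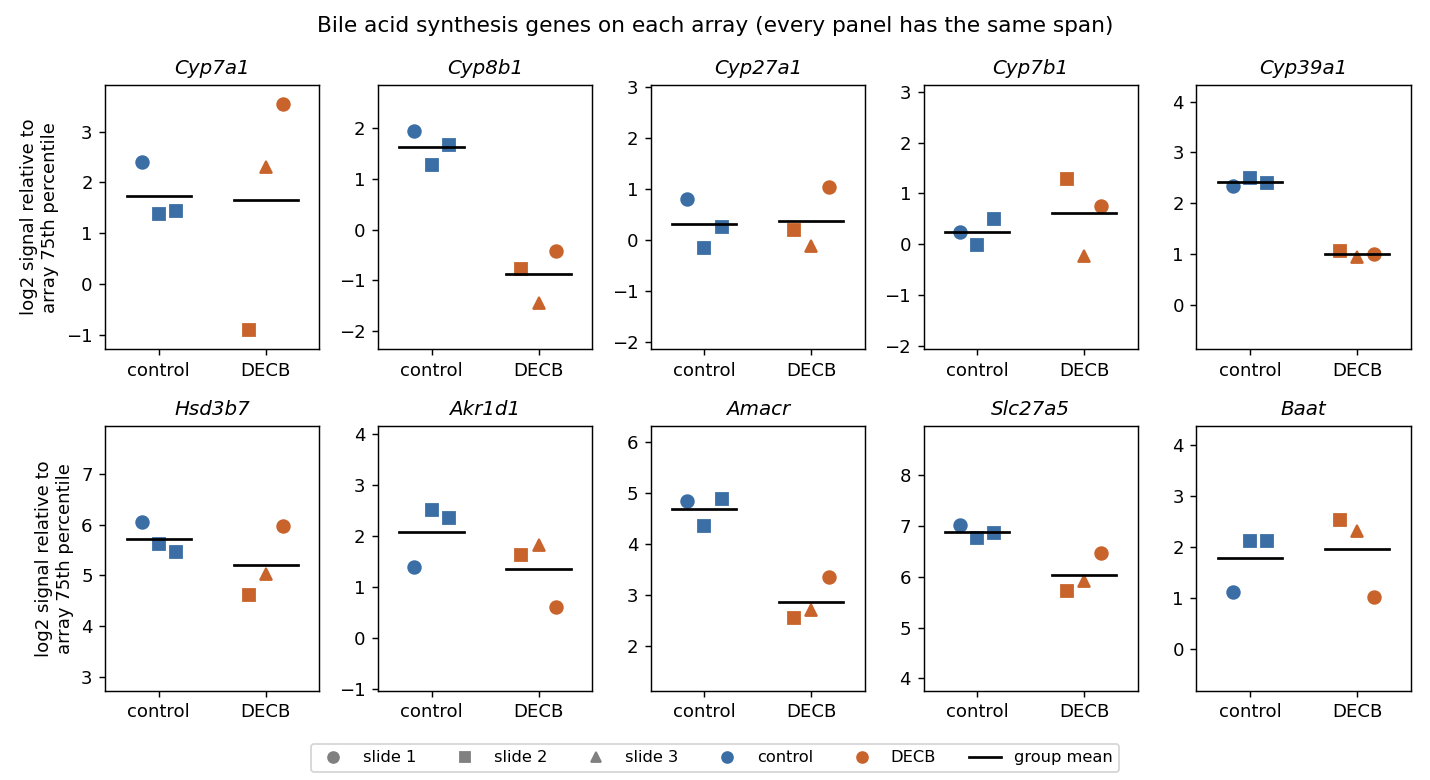
Log2 signal of each gene relative to the array's 75th percentile, 1 point per array, with colour for group, shape for slide and a bar for the mean of 3 arrays. Cyp8b1, Cyp39a1, Amacr and Slc27a5 show no overlap between groups, and Cyp7a1 spreads from -0.90 to 3.54 among DECB arrays.

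Of the classical route, Cyp8b1, the sterol hydroxylase that makes cholic acid, was the gene that fell. Its processed signal was 302, 1023 and 1749 on control arrays 1, 2 and 3, and 248, 193 and 63.3 on DECB arrays 4, 5 and 6. Relative to the array's 75th percentile this was 1.94, 1.28 and 1.67 in control and -0.78, -1.45 and -0.42 in DECB. Every DECB array lay below the lowest control array by more than the range within either group. The control mean was 1.63 ± 0.33 and the DECB mean -0.88 ± 0.52 (SD, n = 3 arrays each). Cyp8b1 thus fell by 2.51 (SE 0.37, limma adjusted p = 0.0491). This was 5.70-fold lower, with a 95% interval from 3.14-fold to 10.4-fold. It ranked 66 by p among all genes tested, near the edge of the threshold.

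The Cyp8b1 difference was similar on both slides that carry both groups, at -2.36 within slide 1 and -2.25 within slide 2. It was -2.30 with slide as a block (adjusted p = 0.0176). The slide 1 value compares 1 array with 1. On DECB 6 the Cyp8b1 signal of 63.3, already background-subtracted, was only 2.48 times the local background. With another background correction (normexp on median signals, with an offset of 50) the difference was smaller, at -1.81 (limma adjusted p = 0.118). Such an offset by itself draws log2 differences of dim signals toward 0. The call itself was less steady. Cyp8b1 passed without DECB 6 (adjusted p = 0.0495) and not without control 1, 2 or 3 (0.124, 0.221 and 0.26) or without DECB 4 or 5 (0.183 and 0.177), with differences from -2.74 to -2.23 over these 6 limma fits. The exact permutation test on the 6 arrays gave p = 0.1, the smallest that 3 against 3 arrays allow.

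Cyp7a1, the rate-limiting enzyme, was at 2.40, 1.39 and 1.44 on the control arrays and at -0.90, 2.31 and 3.54 on DECB arrays 4, 5 and 6. DECB 4 lay far below every control array, DECB 5 lay within the control range and DECB 6 lay above it. The SD was 0.57 in control and 2.29 in DECB arrays. The mean difference was -0.09 (SE 1.05, 95% interval -2.58 to 2.39, limma adjusted p = 1.00), an interval that leaves room for a several-fold change either way. Cyp7a1 was higher by 1.14 in DECB within slide 1 and lower within slide 2, at -2.32, and DECB 5 has no control array on its slide. Without DECB 4 the difference was 1.18 and without DECB 6 it was -1.04, so single arrays decide its direction. On DECB 5 and DECB 6, Cyp8b1 was low while Cyp7a1 was not.

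None of the genes of the alternative route passed the test, and Cyp39a1, at a side branch, was the 1 whose groups did not overlap. Cyp39a1, an oxysterol hydroxylase, was at 2.35, 2.50 and 2.39 on the control arrays and at 1.07, 0.95 and 1.01 on the DECB arrays. Its arrays were the tightest of the 10 genes within both groups, with an SD of 0.081 in control and 0.057 in DECB. The groups did not overlap, and the difference was -1.40 (SE 0.25), 2.65-fold lower with a 95% interval from 1.75-fold to 3.99-fold. Its limma adjusted p was 0.0802, or 0.104 to 0.46 with an array left out, and it passed with slide as a block (difference -1.36, adjusted p = 0.0245). Within slides 1 and 2 the difference was -1.33 and -1.38.

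Cyp27a1, which opens the alternative route, was measured by 10 spots per array whose SD within an array was 0.055 to 0.079. It was at 0.81, -0.15 and 0.26 on the control arrays and at 0.20, -0.13 and 1.05 on the DECB arrays. The groups overlapped almost fully, and the slide 1 array was the highest in each. The difference was 0.06 (SE 0.42, 95% interval -0.92 to 1.05), with 0.23 and 0.14 within slides 1 and 2. Cyp7b1, which hydroxylates the oxysterols that Cyp27a1 makes, was at 0.25, -0.02 and 0.49 on the control arrays and at 1.29, -0.22 and 0.76 on the DECB arrays. DECB 4 and DECB 6 were above the control range and DECB 5 below it, so the groups overlapped. The difference was 0.37 (SE 0.43, 95% interval -0.64 to 1.38, limma adjusted p = 0.939), with 0.51 within slide 1 and 1.05 within slide 2. It was 0.027 without DECB 4, 0.24 without control 2 and 0.78 without DECB 5, and 0.82 with slide as a block (adjusted p = 0.116). For these genes an unadjusted interval of about 1 log2 unit to each side remained, so changes of up to about that size remain possible. That width is not the limit of the adjusted test with 3 arrays a group. Larger differences also did not pass it, as for Cyp39a1 at -1.40 and Amacr at -1.83.

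**Figure D2:**
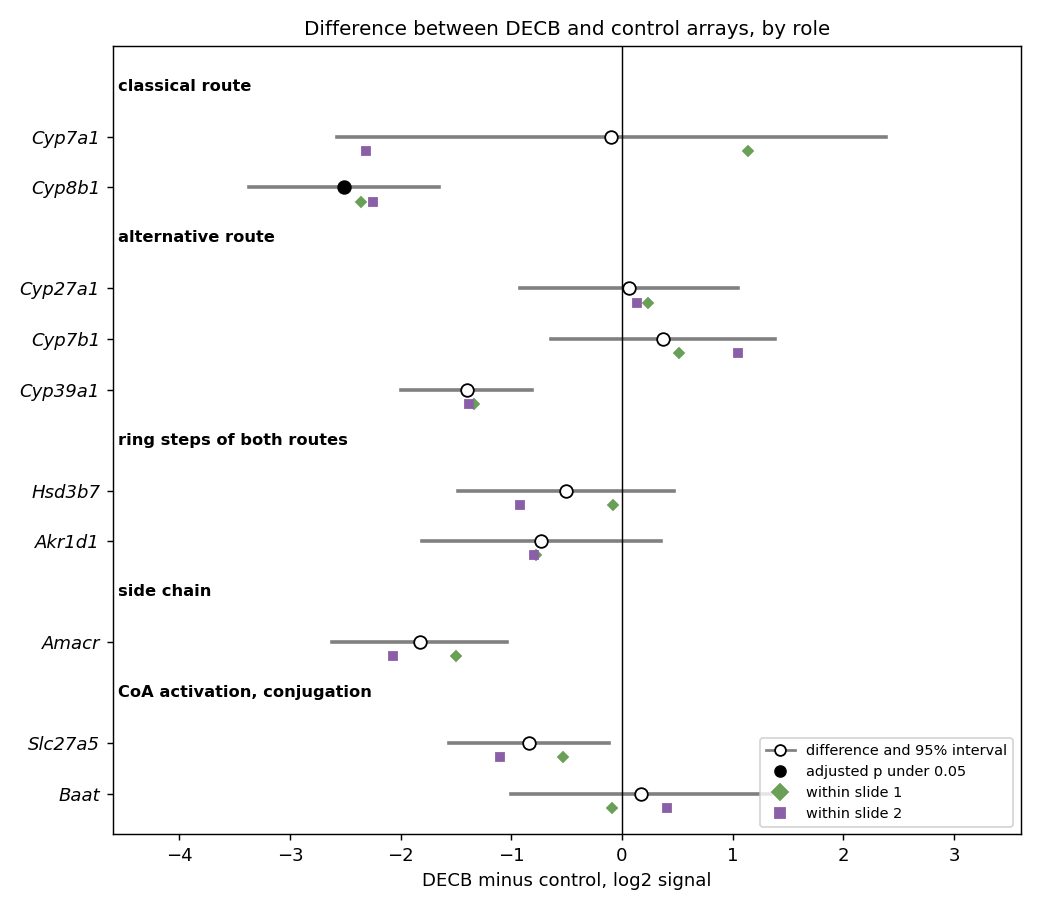
Difference between DECB and control arrays in log2 signal for the 10 genes, grouped by role, with the 95% interval of the limma fit. The filled point marks adjusted p under 0.05, and the small symbols give the difference within slide 1 and within slide 2. Cyp8b1, Cyp39a1 and Amacr lie below 0 on both slides by over 1 log2 unit, while the Cyp7a1 symbols lie on opposite sides of 0.

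Hsd3b7 and Akr1d1, which act on the sterol ring in both routes, did not pass the test, and their groups overlapped. Hsd3b7, the dehydrogenase and isomerase of the ring, was at 6.06, 5.61 and 5.46 on the control arrays and at 4.61, 5.03 and 5.98 on the DECB arrays. DECB 4 and DECB 5 were below the control range and DECB 6 within it. The difference was -0.50 (SE 0.41, limma adjusted p = 0.844), with -0.08 within slide 1 and -0.92 within slide 2. Leaving out control 1 gave -0.33, leaving out DECB 4 gave -0.21 and leaving out DECB 6 gave -0.89. Akr1d1, which reduces the double bond of the ring, was at 1.39, 2.51 and 2.35 on the control arrays and at 1.63, 1.82 and 0.61 on the DECB arrays. The slide 1 array was the lowest of its group in both groups. The difference was -0.73 (SE 0.46, adjusted p = 0.731), and it ran from -1.07 without control 1 to -0.36 without DECB 6. Compared on the same slide it was -0.78 on slide 1 and -0.80 on slide 2, and with slide as a block it was -0.79 (adjusted p = 0.055).

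Amacr, the racemase that prepares the side chain for shortening, had the second largest difference of the 10 genes. It was measured by 10 spots per array with an SD of 0.054 to 0.065 within an array, far below the spread between arrays. It was at 4.85, 4.35 and 4.88 on the control arrays and at 2.55, 2.70 and 3.35 on the DECB arrays. The groups were separated by 1 log2 unit at their nearest arrays. Amacr differed by -1.83 (SE 0.33, 95% interval -2.62 to -1.04), 3.55-fold lower, with a limma adjusted p of 0.0847 and 0.0323 with slide as a block. Within slides 1 and 2 the difference was -1.50 and -2.07. Amacr also serves the oxidation of branched fatty acids in peroxisomes and mitochondria.

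Neither Slc27a5 nor Baat, the enzymes of activation and conjugation, passed the test. Slc27a5, the bile acid coenzyme A ligase, was at 7.01, 6.76 and 6.85 on the control arrays and at 5.71, 5.91 and 6.48 on the DECB arrays. The groups did not overlap, DECB 6 lying nearest to the control arrays. The difference was -0.84 (SE 0.31, 95% interval -1.57 to -0.12, limma adjusted p = 0.409), with -0.53 and -1.10 within slides 1 and 2. Slc27a5 was the 1 gene of the 10 with a further probe. That probe gave a difference of -0.72, with DECB 6 at 5.89 above controls 2 and 3 at 5.55 and 5.75, so on it the groups overlapped.

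Baat, the acyltransferase that makes taurine conjugates, was at 1.11, 2.11 and 2.12 on the control arrays and at 2.53, 2.31 and 1.02 on the DECB arrays. The arrays of slide 1 were the low ones in both groups. The difference was 0.17 (SE 0.50, limma adjusted p = 1.00), with -0.09 within slide 1 and 0.41 within slide 2. Its sign changed when control 1, DECB 4 or DECB 5 was left out, as the values in the closing section show.

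By role, the median difference was -1.30 for the classical route, 0.06 for the alternative route, -0.62 for the ring steps and -0.34 for activation and conjugation, each over 2 or 3 genes of unlike behaviour, with Amacr kept apart from these groups. Differences between a pair of genes on the same array do not depend on how whole arrays are scaled. All 45 pairs were compared in this way. In 18 of them the pair's difference did not overlap between the groups, with an exact permutation p of 0.1 and 0.25 after adjustment over the 45. The share of such pairs among all genes was not computed, and 16.6% of single genes did not overlap in either direction. Because the pairs share genes, a difference of 1 gene enters many of them, and the count is a description only. Cyp8b1 was in 7 of these 18, which restates in part its own difference. It was shifted relative to Cyp27a1 by -2.57 and to Cyp7b1 by -2.88. Cyp7a1 was in 0 of the 18. Relative to Slc27a5, Amacr was shifted by -0.98, with an SD between arrays of 0.22 in control and 0.041 in DECB.

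**Figure D3:**
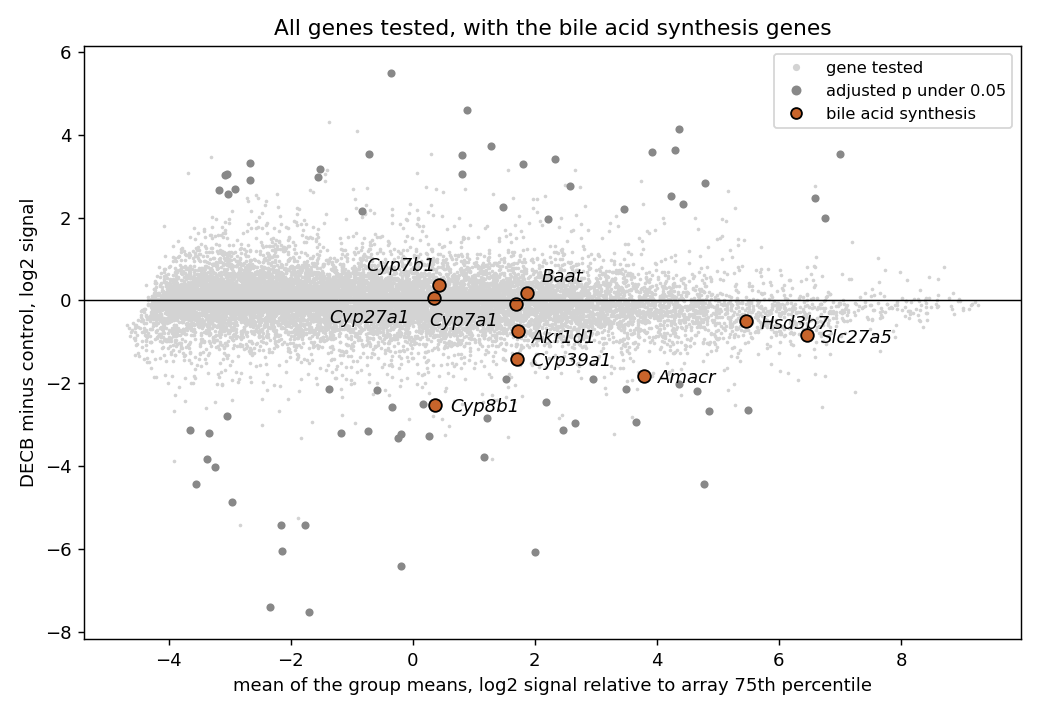
Difference between DECB and control in log2 signal against the mean of both group means for every gene tested, on the log2 scale relative to the array's 75th percentile. Larger grey points passed adjusted p under 0.05, and the coloured points are the 10 bile acid synthesis genes, of which Cyp8b1 passed at -2.51.

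Over the 6 arrays, the genes with a profile closest to that of Cyp8b1 were Cidec, Slc25a47 and Eci2 (Pearson r = 0.997, 0.996 and 0.996). For Cyp7a1 they were Ptgr1, Zfyve19 and Rhox5 (0.994, 0.993 and 0.993), and for Cyp7b1 Gm13315, Eif4g2 and Psme4 (0.99, 0.989 and 0.984). These are descriptions over 6 arrays that share slides and groups, and 230, 78 and 5 of 14749 genes had an r above 0.95 with Cyp8b1, Cyp7a1 and Cyp7b1. Among the other 9 enzymes, 3 had an r above 0.8 with Cyp8b1 and 0 with Cyp7a1 or Cyp7b1. The 3 were Cyp39a1, Amacr and Slc27a5, which like Cyp8b1 were lower on every DECB array than on any control array. Their r therefore restates in part the difference between the groups. The share of all genes with an r above 0.8 was not computed, and shared regulation was not tested.

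Around the 10 enzymes, 20 further genes of side chain shortening, bile acid modification and taurine supply were measured. By limma 0 of the 20 passed in either direction, and 4 were lower and 0 higher at an unadjusted p under 0.05 (5.79% and 4.22% of all genes). With slide as a block 4 passed as lower and 1 as higher, where that fit called 3.94% and 2.74% of all genes (6.67% in either direction). The same fit called 3 of the 10 main enzymes lower, Cyp8b1, Cyp39a1 and Amacr. The median was -0.47, with 14 below 0 (52.5% of all genes). All 3 DECB arrays lay below all 3 control arrays for 6 of the 20, against 9.4% of all genes, and above them for 0, against 7.24%. The 4 with the smallest p, which a lack of overlap favours, were among these 6. Acaa1b, a peroxisomal thiolase, was at 5.46, 5.48 and 5.75 in control and 4.16, 4.39 and 4.58 in DECB, a difference of -1.19 (adjusted p = 0.149). A probe of Acaa1b may also bind its close copy Acaa1a, which differed by -0.28. Abcd3, a peroxisomal importer of bile acid intermediates, differed by -1.14 (adjusted p = 0.236), and Cdo1, the cysteine dioxygenase of taurine synthesis, by -1.06 (adjusted p = 0.312). Acot8, a peroxisomal thioesterase, differed by -0.84 at its brightest probe and -0.73 at the other (adjusted p = 0.291 for the first). These 4 were the ones called lower with slide as a block (adjusted p from 0.0367 to 0.046).

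Cyp2c70, which makes muricholic acid in mice, was the 1 gene called higher with slide as a block (adjusted p = 0.0288), and it is named here after its values were seen. It was at 5.42, 4.05 and 4.27 in control and 5.51, 5.20 and 6.70 in DECB arrays, a difference of 1.22 (SE 0.53, limma adjusted p = 0.517). DECB 5 lay below control 1, so the groups overlapped, while the difference was 1.28 within slide 1 and 1.35 within slide 2.

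Of 20 regulators of the pathway 19 were measured, and Nr1d1 was not well above background on any array. By limma 0 of the 19 passed, 4 were lower and 0 higher at an unadjusted p under 0.05 (5.79% and 4.22% of all genes), and 4 were called lower with slide as a block (3.94% of all genes). The median was -0.45, with 16 below 0 (52.5% of all genes). Ppara, the fatty acid receptor, was at 5.47, 4.96 and 5.25 in control and 3.44, 3.56 and 3.70 in DECB, a difference of -1.66 (SE 0.28, adjusted p = 0.0679, or 0.0215 in the fit blocked on slide). Its other probes gave -1.45 and -0.94. Dbp, a clock-driven factor of D-box sites, differed by -1.51 (adjusted p = 0.172), and Ppargc1a, a coactivator of fasting genes, by -1.43 (adjusted p = 0.203). Klb, the coreceptor through which the gut hormone FGF15 represses Cyp7a1, differed by -1.11 (adjusted p = 0.519), and it too was called lower with slide as a block (adjusted p = 0.0329).

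Nr0b2, the corepressor SHP that FXR induces, was at -0.80, -0.90 and -1.43 in control and -1.93, -2.24 and -1.79 in DECB. The groups did not overlap, and the difference was -0.94 (SE 0.30, limma adjusted p = 0.336). Values follow for 4 further regulators. Nr1h4 differed by -0.40, Nr5a2 by -0.13, Hnf4a by -0.31 and Nr1h3, the sterol receptor LXR alpha, by 0.08, with adjusted p from 0.873 to 1.00. Fgfr4, the receptor that pairs with Klb, differed by -0.09.

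**Figure D4:**
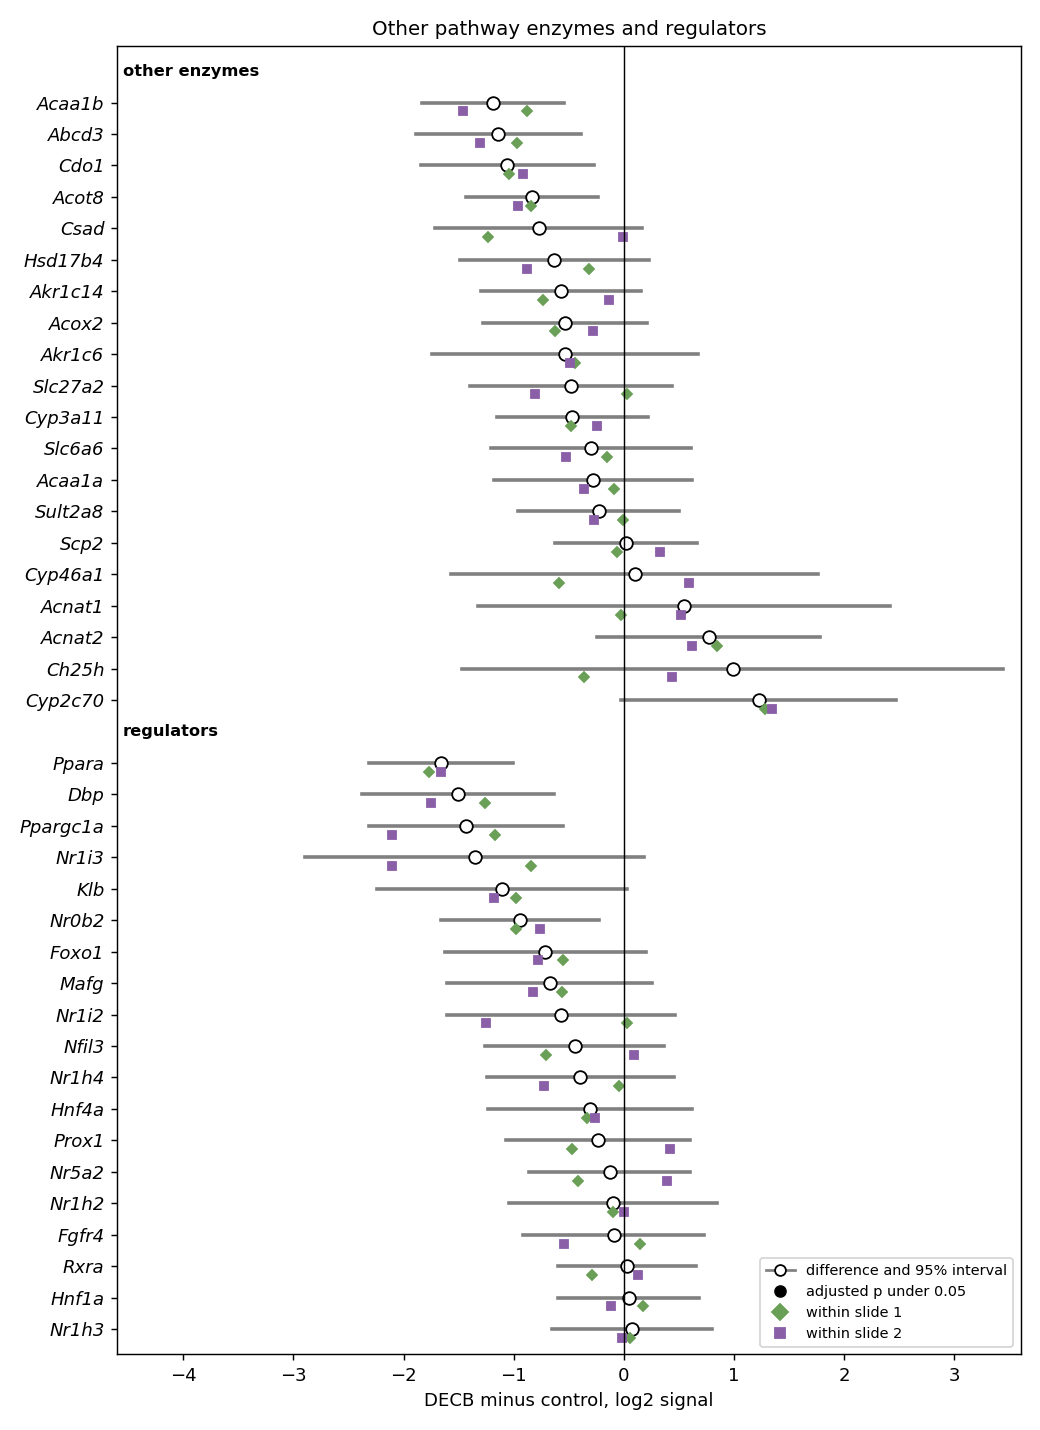
Difference between DECB and control in log2 signal, with 95% intervals, for 20 other enzymes and 19 regulators of bile acid synthesis. None of the points is filled, since none passed adjusted p under 0.05, and the small symbols give the difference within slides 1 and 2; Ppara at -1.66 is the lowest.

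Markers of cell types were read on the same arrays. Of the hepatocyte list 6 of 6 were below 0 with a median of -0.33, and 0 of 6 passed. The median was -0.36 for 8 markers of pericentral hepatocytes, where Cyp7a1 is mainly expressed, and -0.39 for 7 periportal markers, with 0 called in either list. Their summed levels ran from 8.70 to 8.79 in control and 8.12 to 8.59 in DECB for the pericentral list, and from 8.94 to 9.27 and 8.59 to 9.02 for the periportal list. The pericentral sums did not overlap between groups, but they reflect mostly Cyp2e1 (difference -0.46, limma adjusted p = 0.689). Of all single genes, 9.4% had every DECB array below every control array. Kupffer cell markers (5 of 5 measured) had a median of -0.20 and summed levels of 3.51 to 4.03 in control and 3.73 to 4.12 in DECB. Endothelial markers (5 of 5) had a median of -0.30, with 4.28 to 5.22 and 3.78 to 4.88, and stellate markers (4 of 5) one of -0.41, with 1.97 to 2.06 and 1.77 to 2.19. Cholangiocyte markers (3 of 5) had a median of 1.00, with 0.16 to 2.85 and 1.09 to 4.99, and Krt7 was not well above background on any array. Leukocyte markers (3 of 4) had a median of 0.01, and for the 2 with a value on every array the sum ran from -1.98 to -1.32 in control and -1.70 to -1.29 in DECB. No marker of these lists passed without the slide block. With it, Hal (-1.53, limma adjusted p = 0.0254) and Cdh1 (1.38, 0.0329) of the periportal list, Hand2 of the stellate list (-1.09, 0.032) and Stab2 of the endothelial list (-1.05, 0.0463) passed. No other marker of the lists passed in that fit, which called 6.67% of all genes in either direction. These calls are not read as a change of a cell type. The part of these markers in the differences of the bile acid genes was not tested.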

How the data were processed

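Liver RNA of 3 control and 3 DECB samples was measured on 1-colour Agilent arrays. Per the file headers and the submitters' processing notes, Agilent Feature Extraction 11.0.1.1 made the deposited files. Their processed intensity is background-subtracted and detrended over the slide surface but not scaled between arrays, per the file headers. A deposited table of the authors' log2 values had the same median, 5.34, in every column. It correlated with the scanner values at 0.742 to 0.775 and its DECB minus control differences at -0.043, and only 1 of its 6 columns correlated best with its own array, so it was not used further, and its centring and direction are unknown.

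From the processed intensity, the log2 value minus the array's 75th percentile over 43020 non-control spots was taken. Outlier spots numbered 164 to 322 on an array and were dropped with the control spots, and none was saturated. Spots of a probe were averaged. Of 39429 probes, 25418 were kept because at least 3 arrays showed them well above background. RefSeq accessions named 27234 of 28684 probes that carry one, through a table of GRCm38.p6. The array design names mm9, so positions are given only for the RefSeq promoters. A gene took its brightest kept probe. Differences were tested with limma 3.58.1 in R 4.3.3, and p-values are two-sided and Benjamini-Hochberg adjusted across every gene tested. The fit was also run on simulated data of independent arrays without a slide effect. Those data therefore do not address slides or samples that may not be separate. The number of arrays limits the precision. Groups came from the sample titles.

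The enzymes and the lists were chosen with earlier results of these data known. All 10 enzymes are named, with the 4 genes of smallest p in each further list, any past the threshold, and the 3 genes most like each of Cyp7a1, Cyp8b1 and Cyp7b1. Klb, Cyp2c70, Acaa1a, Nr1h4, Nr5a2, Hnf4a, Nr1h3 and Fgfr4 fall outside this rule and were chosen after their values were seen. Alternatives covered background, scaling, probe filters, slide, single arrays and the averaging of controls 2 and 3.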

Additional observations from a re-analysis of the deposited data

How the results depend on the processing

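No paired analysis was possible because the titles give the groups different sample numbers, and the slide block is the blocked fit given. Over the 18 named genes with these settings, the direction of each was kept except for Cyp7a1, Cyp27a1 and Baat, whose differences were near 0. Cyp7a1 was at 0.091 with normexp (on median signals, chosen after seeing the data), and ran from -1.04 without DECB 6 to 0.23 without control 1 and 1.18 without DECB 4. Cyp27a1 was at -0.022 without slide 1, -0.063 with controls 2 and 3 averaged, and -0.27 (without DECB 6) to 0.31 with an array left out, -0.17 without control 2. Baat was at -0.16, -0.11 and -0.0070 without control 1, DECB 4 and DECB 5, and at 0.64 without DECB 6. Cyp8b1 was at -1.81 with normexp. The count of bile acid genes called lower was 0 with normexp, with quantile normalization, with no filter on dim probes, without slide 1 and with controls 2 and 3 averaged (4, 4, 4, 6 and 3 at an unadjusted p under 0.05), 2 with the strict filter, 3 with slide as a block and 0 to 1 with an array left out. Controls 2 and 3 correlated at 0.992 over genes, the highest of all pairs, and may not be separate samples. Control 1 correlated more closely with DECB 6 of its slide (0.968) than with controls 2 and 3 (0.941 and 0.939), and DECB 6 more closely with control 1 than with DECB 4 and 5 (0.913 and 0.917). Over all genes the calls were 15 higher and 22 lower with quantile normalization, 70 and 61 with the percentile over probes above background on all arrays, 0 and 0 with no filter (537 and 720 unadjusted), 405 and 583 with slide as a block, 0 and 2 with those controls averaged, and 0 to 18 and 0 to 35 with an array left out. Among other enzymes 1 was called higher and 4 lower with slide as a block, and among regulators 1 lower with that percentile, 1 with the strict filter and 4 with slide as a block. With an array left out, no gene of either list was called. The median of the bile acid genes was -0.31 within slide 1, -1.01 within slide 2 and -0.96 to -0.44 with an array left out. The classical median was -0.61 within slide 1, -2.28 within slide 2 and -1.89 to -0.69 with an array left out, and that of the ring steps -0.43 and -0.86 within slides 1 and 2 and -0.70 to -0.53. The alternative median ran from -0.27 to 0.31, conjugation from -0.47 to -0.21, the other enzymes from -0.59 to -0.30 and regulators from -0.70 to -0.32. The cause of these shifts was not tested. DECB 5 adds nothing to the blocked contrast. Slide 1, with a 75th percentile of background-subtracted signal 3.75 to 4.04 times the local background, limits dim genes.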
